A study of Homo sapiens with 6 samples.

Results

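The genes described here were those of cholecystokinin (CCK), its receptors CCKAR and CCKBR, and the precursors of 6 other neuropeptides, NPY, SST, GAL, NTS, PENK and TAC1. They were the 9 rows with these names among the 34692 rows of the array table. They were selected on the difference between the groups and on their detection p-values, which were already known, so their values in that comparison are a description and carry no test. Bead arrays were used to compare 3 samples of control neural cells with 3 of isthmic organizer (IsO)-like cells, both grown from the human embryonic stem cell line H9, which is an established line. Cells of both groups were neuralised for 4 days as floating aggregates with 5 µM dorsomorphin and 10 µM SB431542, inhibitors of BMP and activin/TGF-beta receptors, and were then plated and kept for 5 more days. The medium of IsO-like cells also held 100 ng/ml FGF8 and CHIR99021, which activates Wnt signalling by inhibiting GSK3, at an unstated concentration within the labels' range of 0 to 1.2 µM. All 6 samples came from 1 cell line, and whether the samples of a group were separate cultures is not in the labels. The p-values therefore measure the spread between these samples only, which may be technical. The labels do not say what, if anything, the control cells received in place of FGF8 and CHIR99021.

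Neuropeptides are cut from larger precursor proteins inside secretory granules, trimmed and often amidated, and released to act on G protein-coupled receptors. Cholecystokinin is made by endocrine cells of the gut and by many neurons of the forebrain, where CCKBR, which also binds gastrin, is the prevalent receptor. CCKAR prefers sulfated cholecystokinin and is best known from the gallbladder and pancreas. Both receptors couple to Gq, which raises calcium through phospholipase C.

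The promoters of the 3 members whose groups lay apart are shown because the rest of the text turns on these genes. Each line gives the 250 bases before a RefSeq start on GRCh38.p14, 5′ to 3′ on the gene's strand. Capitals mark matches, on either strand, to 5 motifs. The cAMP response element was searched as TGACGTCA. The GC box was searched as GGGCGG. For TCF/LEF sites the core CTTTGA was used. For homeodomain factors the palindrome TAATTA was used. The TATA element was searched as TATAAA. RefSeq lists 2 starts for CCK, and which of them these cells used was not measured.
CCKBR, chr11:6259588-6259837, plus strand: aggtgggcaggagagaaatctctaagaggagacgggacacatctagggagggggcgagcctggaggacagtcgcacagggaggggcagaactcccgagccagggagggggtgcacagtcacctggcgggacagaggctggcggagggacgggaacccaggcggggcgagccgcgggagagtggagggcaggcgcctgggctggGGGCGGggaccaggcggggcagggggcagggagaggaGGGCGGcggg
CCK, upstream start, chr3:42266186-42266435, minus strand: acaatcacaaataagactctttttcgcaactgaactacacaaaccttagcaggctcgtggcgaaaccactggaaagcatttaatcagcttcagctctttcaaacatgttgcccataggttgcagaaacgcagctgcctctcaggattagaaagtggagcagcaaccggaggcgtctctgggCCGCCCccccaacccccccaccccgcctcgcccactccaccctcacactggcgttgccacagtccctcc
CCK, downstream start, chr3:42263948-42264197, minus strand: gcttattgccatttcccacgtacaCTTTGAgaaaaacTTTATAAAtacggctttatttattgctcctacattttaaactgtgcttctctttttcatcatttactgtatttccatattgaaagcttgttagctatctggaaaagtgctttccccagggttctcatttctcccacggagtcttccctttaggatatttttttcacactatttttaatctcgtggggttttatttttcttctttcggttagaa
SST, chr3:187670395-187670644, minus strand: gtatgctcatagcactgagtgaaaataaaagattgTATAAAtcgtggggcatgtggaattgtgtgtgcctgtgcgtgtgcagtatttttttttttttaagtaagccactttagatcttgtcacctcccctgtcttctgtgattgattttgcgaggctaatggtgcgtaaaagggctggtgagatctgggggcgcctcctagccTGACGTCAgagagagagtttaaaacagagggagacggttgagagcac

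The CCKBR window held 72.4% G and C and 2 GC boxes, which begin 47 and 10 bases before the start. The upstream CCK window held 1 GC box, and the downstream one, with 34.8% G and C, held 1 TCF/LEF core and TATAAA on both strands. These 2 TATAAA matches overlap each other and lie 213 and 211 bases before the start. The SST window held the cAMP response element, 47 bases before the start, and 1 TATAAA, 215 bases before the start. Of 35116 RefSeq windows of this length, 1.65% held TGACGTCA, 42.6% GGGCGG, 11.2% CTTTGA, 4.35% TAATTA and 10.7% TATAAA. A match is a description of these letters and was not tested as a binding site.

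Of the 9 members, CCKBR, SST and TAC1 had detection p-values below 0.05 on all 6 arrays, GAL on 4, CCK on 3, and NPY and PENK on 1. CCKAR and NTS were not above background on any array. A row entered the fit when 3 or more of the 6 arrays detected it at p below 0.05, which left 5 members and 14548 rows in all. The 2 of these 5 members that passed the threshold of the fit across all rows were lower in IsO-like cells, and 1 more passed, higher, with the replicate number as a block. Over all rows tested, 1.31% passed, or 5.86% with the block. As the choice of members used this contrast, nothing is read from their count. In the text, a level is a log2 intensity after background correction and quantile normalisation, and a difference is IsO minus control on that scale.

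**Figure D1:**
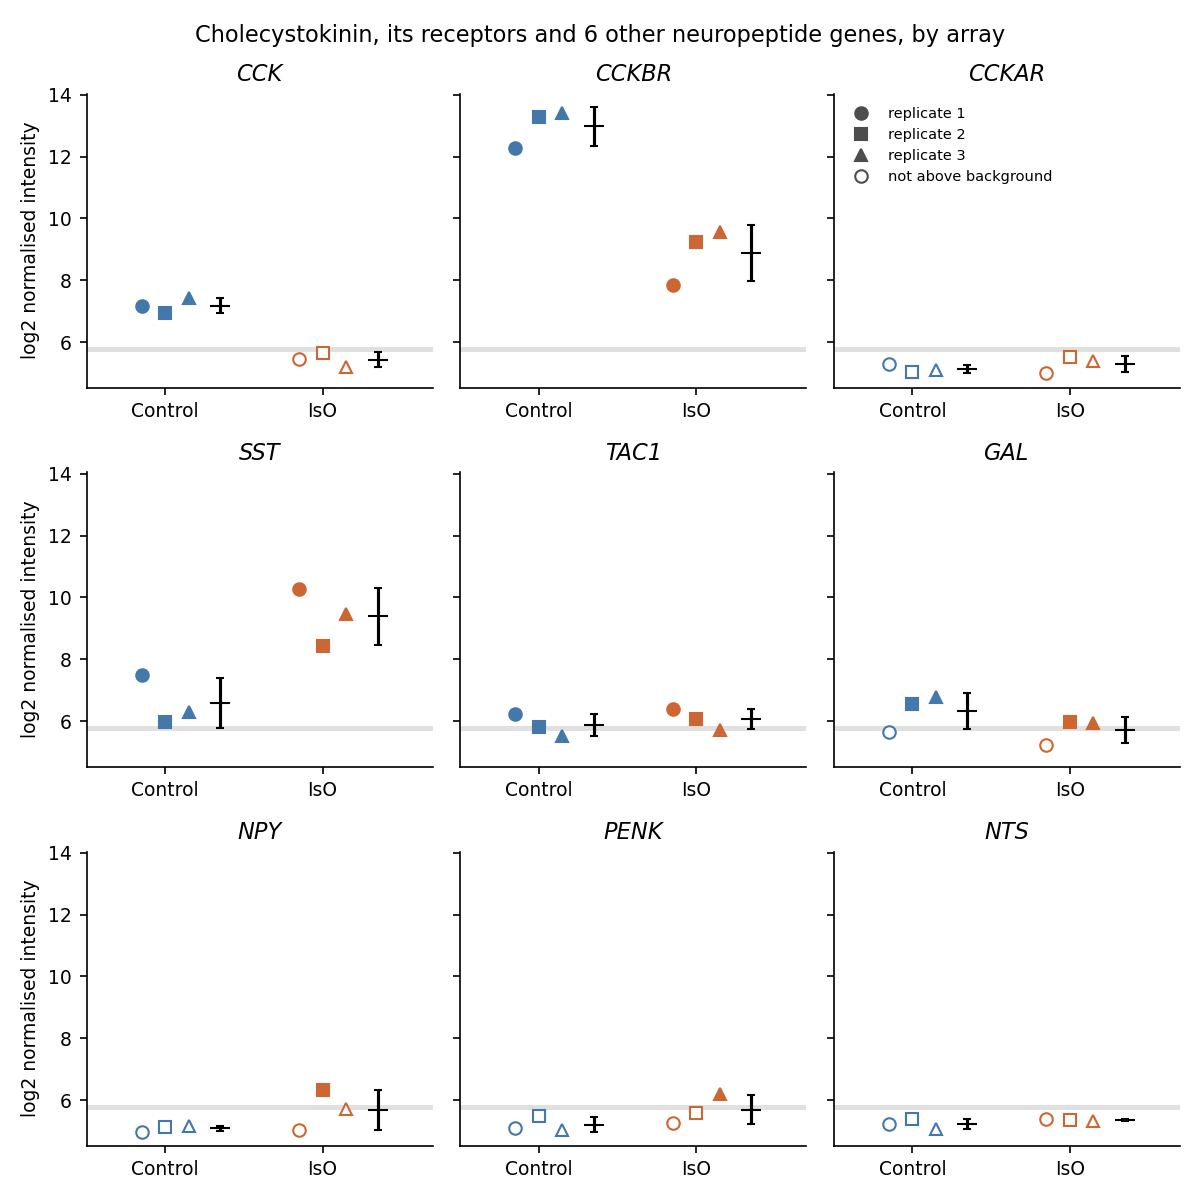
Normalised log2 intensity of each of the 9 genes (vertical axis) on the 3 control and 3 IsO arrays, with symbols for the replicate number, filled where the row was above background, and the mean ± SD of each group at its right. The grey band spans the lowest level of a detected 1-probe row on the 6 arrays. CCKBR and CCK lie lower and SST higher on every IsO array than on any control array, and CCKAR and NTS stay in or under the band throughout.

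CCKBR, the receptor for cholecystokinin and gastrin, was far above background on the control arrays, and it was lower on all IsO arrays. Its deposited intensity was 4346, 10427 and 11164 on control arrays 1, 2 and 3, and 417, 655 and 868 on IsO arrays 1, 2 and 3. The groups did not overlap, the lowest control array being 5.01 times the highest IsO array, and CCKBR was still above background on every IsO array. Of all tested rows, 15.4% also had groups that did not overlap. The mean level was 12.98 ± 0.63 in control and 8.88 ± 0.92 in IsO-like cells (SD, n = 3 each). The difference was -4.10 ± 0.52 (SE from the fit across all rows), which corresponds to a level 17.2-fold higher in control cells. In extracts of whole cultures, fewer cells with the transcript and less of it per cell cannot be told apart.

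Within both groups the array numbered 1 had the lowest CCKBR level, 12.26 against 13.27 and 13.41 in control and 7.84 against 9.24 and 9.56 in IsO-like cells. The difference taken within same-numbered arrays was -4.42, -4.03 and -3.85. These differences spanned 0.58, against 1.15 and 1.72 for the levels within the control and IsO groups. Over 16 alternative settings the difference of CCKBR lay between -4.48 and -3.63. Those settings that changed only the block or the row filter could not move it.

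CCK, the peptide's own gene, was dim in control cells and did not rise above background in IsO-like cells. Its deposited intensity was 245, 230.2 and 268 on the control arrays, with detection p-values of 0.0013, 0.00519 and 0.0013. On the IsO arrays it was 146, 153 and 134, with detection p-values of 0.126, 0.0740 and 0.421. Every control array lay above every IsO array. The level was 7.18 ± 0.24 in control and 5.43 ± 0.24 in IsO-like cells (SD, n = 3 each), and the fitted difference was -1.75 ± 0.22 (SE). As no IsO array was above background, the comparison is a bound: CCK was at least 2.67-fold higher in control cells, setting the mean control level against the mean, per IsO array, of the higher of its own level and the lowest level of a detected 1-probe row.

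The size of the CCK difference depended on how the background was treated. Without background correction it was -0.85 and the bound 1.60-fold, and with a background estimated from all rows it was -0.0725 and the bound 1.04-fold. Its direction was the same under these settings and all the others run, though those that changed only the block or the row filter could not alter it. Within same-numbered arrays the difference was -1.73, -1.28 and -2.24. The array numbered 1 was not the lowest in either group for CCK, unlike for CCKBR.

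CCKAR, the other cholecystokinin receptor, stayed at background on all arrays. Its deposited intensity ran from 119.6 to 130.3 on the control arrays and from 113 to 146 on the IsO arrays, with the groups overlapping. The lowest intensity of a detected 1-probe row was between 155 and 171 on these arrays, so a level of CCKAR under that could not be seen. Of the 2 cholecystokinin receptors, CCKBR was therefore the one seen above background.

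**Figure D2:**
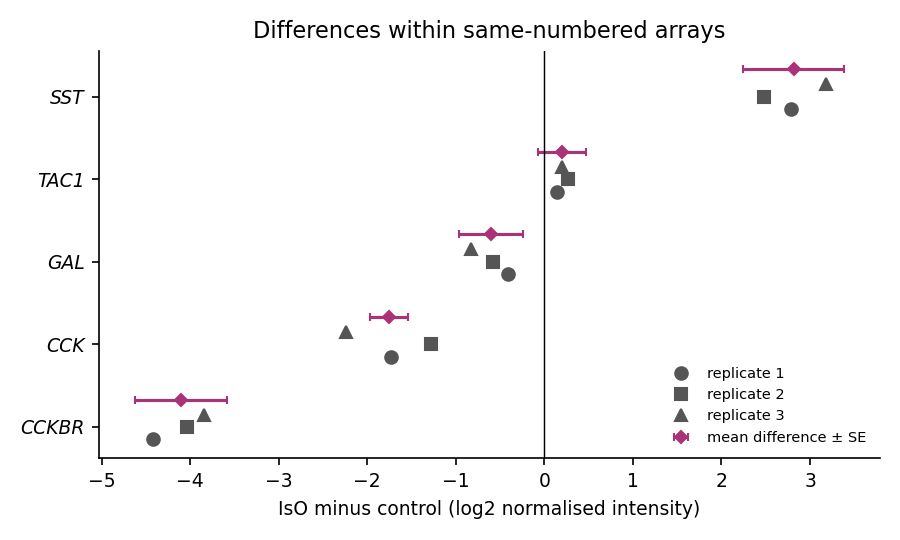
Difference between the IsO and the control array of the same replicate number (symbols) and the mean difference ± SE of the fit (diamonds), on the log2 scale, for the 5 tested members. All 3 pairs lie below 0 for CCKBR, CCK and GAL and above 0 for SST and TAC1, and the SE of TAC1 spans 0.

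SST, which encodes somatostatin, an inhibitory peptide of interneurons and endocrine cells, had the opposite pattern to CCKBR. Its deposited intensity was 280.0, 172 and 182 on control arrays 1, 2 and 3, and 1549, 422 and 817 on the IsO arrays. Every IsO array lay above every control array, but the lowest IsO array was only 1.51 times the highest control array. SST was above background on all 6 arrays, with detection p-values of 0.0325 and 0.0156 on control arrays 2 and 3. The level was 6.58 ± 0.81 in control and 9.39 ± 0.92 in IsO-like cells (SD, n = 3 each), and the difference was 2.81 ± 0.57 (SE), or 7.03-fold.

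The spread of SST within a group was large, and the array numbered 1 was the highest in both. Its levels were 7.49, 5.96 and 6.28 in control and 10.28, 8.44 and 9.46 in IsO-like cells. Within same-numbered arrays the difference was 2.78, 2.48 and 3.17, which spans 0.69 against 1.53 and 1.83 for the levels. Without background correction the difference was 1.92, and with a background from all rows 0.47.

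**Figure D3:**
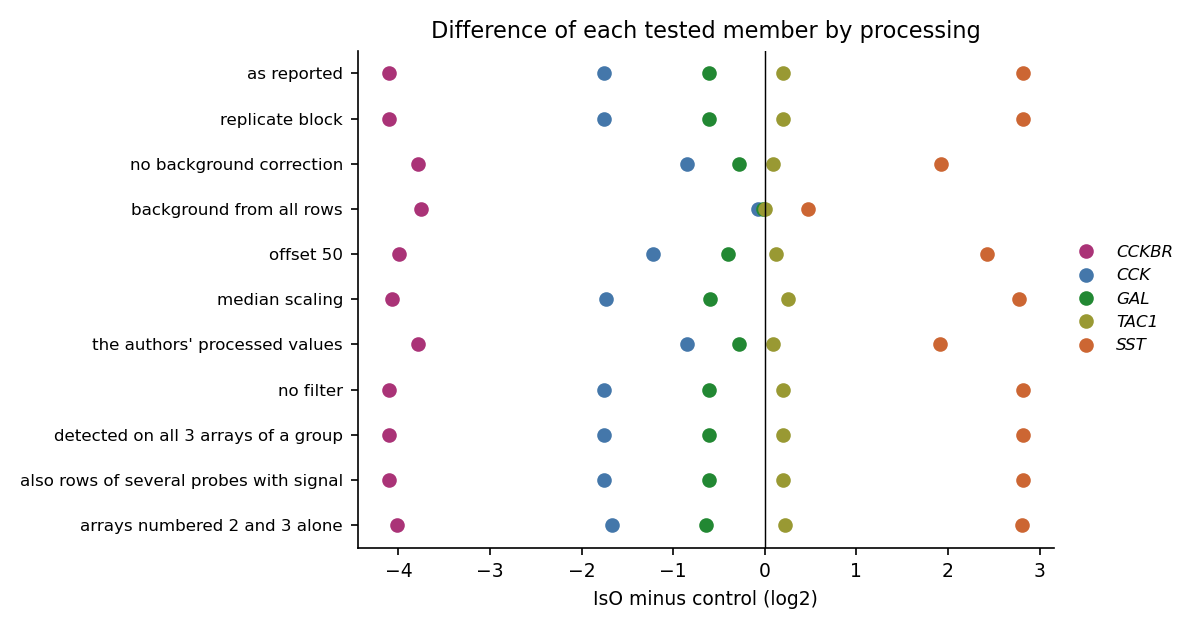
Difference between the groups (log2, horizontal axis) of the 5 tested members under each processing setting other than the left-out arrays (rows). CCKBR stays between -4.10 and -3.75, while CCK and SST move towards 0 without background correction and more so with the background from all rows.

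GAL, the precursor of galanin, overlapped between the groups. Its deposited intensity was 148, 202 and 210.4 on the control arrays, against 132, 167 and 176 on the IsO arrays. On the array numbered 1 of each group it was at background. The difference was -0.61 ± 0.36 (SE), and within same-numbered arrays it was -0.41, -0.57 and -0.83, below 0 in 3 of 3 pairs.

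TAC1, the precursor of substance P and neurokinin A, was close to background in both groups. Its deposited intensity was 177, 165 and 145 on the control arrays, against 214, 172 and 166 on the IsO arrays. The TAC1 row combined several probes, whose detection p-values are on another scale than those of 1-probe rows, and on 4 of the 6 arrays its signal was no lower than the dimmest detected 1-probe row. The groups overlapped, and the difference was 0.20 ± 0.27 (SE). In each group the array numbered 1 was the highest and that numbered 3 the lowest, a spread of 0.71 and 0.66 in log2 level that was larger than the difference between the groups.

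NPY, the precursor of neuropeptide Y, had an intensity of 110.1, 126 and 123 on the control arrays, against 117, 185 and 164 on the IsO arrays. It was above background on IsO array 2 alone, with a detection p-value of 0.0117. PENK, the precursor of the enkephalins, had an intensity of 118, 149 and 116 on the control arrays, against 134, 149.5 and 189 on the IsO arrays, and was above background on IsO array 3 alone, at a detection p-value of 0.0169. NTS, the precursor of neurotensin, lay between 117 and 143 on the control arrays and between 138 and 144 on the IsO arrays and was not above background on any. The groups of NPY, PENK and NTS overlapped, and these 3 and CCKAR were not tested.

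The profiles most like those of CCKBR, CCK and SST were looked up among the tested rows that carry a current gene symbol, by the root mean square distance between levels centred on their mean over the 6 arrays. For CCKBR these were IGFBP3, which encodes a binding protein of insulin-like growth factors (0.36), and FZD5, a Wnt receptor gene (0.45). Like CCKBR, both had their lowest level in each group on the array numbered 1, which for IGFBP3 was 10.23 in control and 6.47 in IsO-like cells. For SST the nearest was NEFM, a neurofilament gene (0.31), followed by BGN, which encodes the proteoglycan biglycan (0.46), and SYT4, which encodes a synaptotagmin of dense-core granules (0.47). Like SST, all 3 had their highest level in each group on the array numbered 1, which for NEFM was 8.21 in control and 10.81 in IsO-like cells. For CCK they were TPM1, a tropomyosin gene (0.21), TNNT1, a troponin gene (0.23), and TJP3, a tight junction gene (0.27). For TAC1 they were GINS2, PTPN12 and NDUFA9, at 0.04, 0.04 and 0.06, whose levels, like that of TAC1, were highest on the array numbered 1 in each group. These distances are descriptions over arrays that differ by group and replicate number. The rows were picked for their likeness over these same arrays, so a shared extreme on array 1 follows from the choice. CCK on the IsO arrays and SYT4 on the control arrays were not above background. The levels of TAC1 lay between 5.53 and 6.38 on all arrays, a narrow range in which small distances are easily reached.

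**Figure D4:**
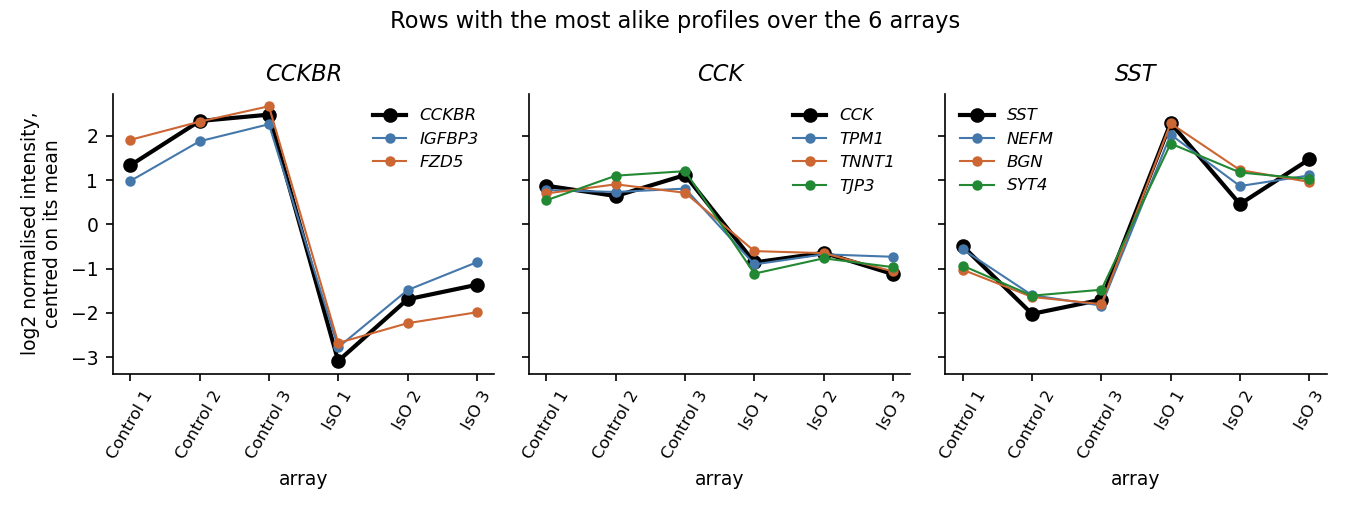
Centred log2 level (vertical axis) of CCKBR, CCK and SST (black) and of rows with the smallest distance to each (colours; 2 for CCKBR and 3 each for CCK and SST) on the 6 arrays (horizontal axis). CCKBR and its 2 rows have their lowest level in each group on the array numbered 1, and SST and its 3 rows their highest. The rows were picked for having a like profile.

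Other genes of peptide signalling were read from 6 lists and tested in the fit across all rows (limma, Benjamini-Hochberg adjusted p below 0.05). Of 63 precursors of other neuropeptides and peptide hormones, 62 had a row, 39 of these were not above background on any array, and 14 were tested. None of the 14 passed, 4 had an unadjusted p below 0.05 (9.93% of all tested rows did), and with the replicate block 3 were called higher and 1 lower (3.31% and 2.55% of all tested rows). The median difference was 0.27, against -0.01 over all tested rows. PROK2, which encodes prokineticin 2, differed by 1.45 ± 0.28 (SE, adjusted p = 0.0842, 0.0124 with the block, at most 0.403 over the alternatives). NMU, the precursor of neuromedin U, differed by 1.00 ± 0.20 (adjusted p = 0.0881, 0.0196 with the block, at most 0.428). PDYN, the precursor of the dynorphins, differed by 1.36 ± 0.61 (adjusted p = 0.561, 0.0167 with the block, at most 1.00), and was above background on 1 control array. NPPB, the precursor of B-type natriuretic peptide, differed by -2.32 ± 0.53 (adjusted p = 0.134, 0.0101 with the block, at most 0.465), and was above background on 2 IsO arrays.

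The 22 receptors for the other 6 peptides included 15 that were not above background on any array and 5 that were tested. None passed, with or without the block, and 1 had an unadjusted p below 0.05 (9.93% of all tested rows did). That gene was OPRK1, the kappa opioid receptor, with a difference of 0.83 ± 0.24 (SE, adjusted p = 0.256). SSTR2, a somatostatin receptor, was above background on all arrays and differed by 0.16 ± 0.34 (adjusted p = 0.978), while SSTR1, SSTR4 and SSTR5 were not above background on any. SORT1, the sorting receptor that binds neurotensin, differed by -0.01 ± 0.33 (adjusted p = 0.999). Fitted over all rows without the filter, GALR2, a galanin receptor, was called lower, but it was at background on all arrays.

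Of 19 enzymes and helpers of precursor processing, 13 were tested. None passed, 3 had an unadjusted p below 0.05 (9.93% of all tested rows did), and with the block 3 were called higher and 1 lower (3.31% and 2.55% of all tested rows). The median difference was -0.01. CPE, the carboxypeptidase that trims cleaved peptides, differed by 1.02 ± 0.27 (SE, adjusted p = 0.208, 0.0190 with the block, at most 0.687 over the alternatives). PAM, the enzyme that amidates peptides such as cholecystokinin, differed by 1.08 ± 0.60 (adjusted p = 0.707, 0.0275 with the block, at most 1.00). QPCTL, a glutaminyl cyclase of the Golgi, differed by 1.04 ± 0.24 (adjusted p = 0.132, 0.0208 with the block, at most 0.537), and CTSL, a cathepsin listed under the older name CTSL1, by -0.78 ± 0.34 (adjusted p = 0.525, 0.0478 with the block, at most 1.00). TPST1 and TPST2, which sulfate tyrosines such as that of cholecystokinin, differed by -0.28 and -0.34 (adjusted p = 0.834 and 0.920). PCSK2, a convertase of neuropeptide precursors, stayed at background on all arrays, and PCSK1 was above it on 1 array of each group.

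Of 33 genes of dense-core granules and their release, 32 had a row and 16 were tested. Of these, 2 were called higher, 14 did not pass and none was called lower. Over all tested rows, 0.818% were called higher and 0.488% lower, but nothing is read from the list's count, since SYT4 entered the fit only through the group where it was high. With the block 4 were called higher, against 3.31% of all rows. The median difference was 0.11. SYT4, a synaptotagmin of dense-core granules, had levels of 5.60, 4.93 and 5.06 on the control arrays, none above background, and 8.37, 7.71 and 7.56 on the IsO arrays. It was at least 4.17-fold higher in IsO-like cells (adjusted p = 0.0135 in a fit that it entered through its IsO arrays alone), a bound that was 2.13-fold when no background was corrected. A background from all rows gave 1.09-fold, where SYT4 was not called. RAB3C, a GTPase of secretory vesicles, rose by 1.33 ± 0.21 (SE, adjusted p = 0.0453, 0.0111 to 0.276 over the alternatives). VGF, a granule protein gene, differed by 1.34 ± 0.32 (adjusted p = 0.151, with the block 0.0276, at most 0.571). The difference of SNAP25, a gene of vesicle fusion, was 1.37 ± 0.26 (adjusted p = 0.0808, with the block 0.0159, at most 0.328). CHGA and CHGB, the chromogranins, differed by 0.86 ± 0.29 and 0.44 ± 0.31 (adjusted p = 0.333 and 0.812).

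The count for dense-core granules did not hold when arrays were left out. It was 1 without control array 1 and 0 without any other single array. SYT4 had an adjusted p of 0.0911 without control array 2 and 0.111 without control array 3. Without an IsO array it was above background on too few arrays to be tested.

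None of 10 tested genes of peptide breakdown passed, 2 had an unadjusted p below 0.05, and with the block 1 was called higher. That was PRCP, a carboxypeptidase, with a difference of 1.28 ± 0.24 (SE, adjusted p = 0.0788, 0.0152 with the block, at most 0.341 over the alternatives). TPP2, the peptidase known for cleaving cholecystokinin, differed by -0.22 ± 0.52 (adjusted p = 0.981). Of 24 genes of Gq and calcium signalling, 11 were tested and none passed, 4 had an unadjusted p below 0.05 and 2 were called higher with the block. These were RGS16, a regulator of G protein signalling, with 1.48 ± 0.30 (adjusted p = 0.0964, 0.0144 with the block, at most 0.412), and PRKCA, a protein kinase C gene, with 1.81 ± 0.40 (adjusted p = 0.117, 0.0478 with the block, at most 0.452). GNAQ and GNA11, the G protein subunits to which CCKBR couples, differed by 0.29 ± 0.17 and -0.37 ± 0.34 (adjusted p = 0.734 and 0.894). The medians of these lists were 0.15 and 0.14. Over all tested rows, 9.93% had an unadjusted p below 0.05, and with the block 3.31% were called higher and 2.55% lower.

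**Figure D5:**
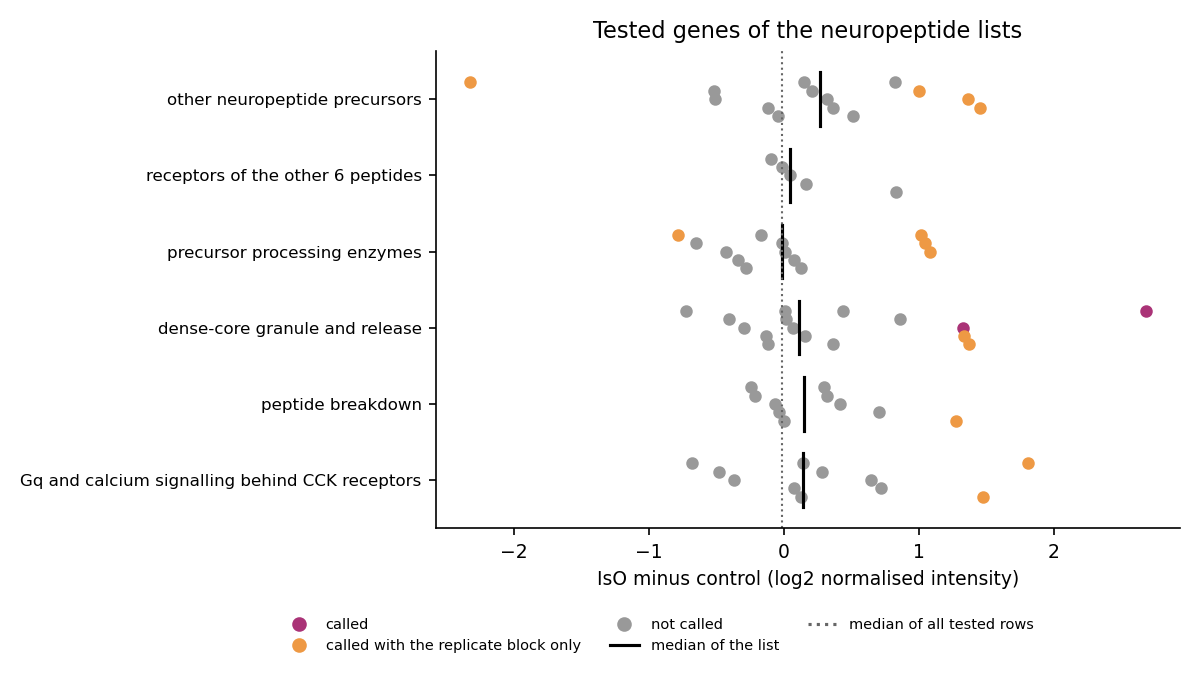
Difference between the groups (log2, horizontal axis) of each tested gene of the 6 lists (rows), with the median of each list as a bar and that of all tested rows as a dotted line. Only SYT4 and RAB3C, in the dense-core granule list, were called without the replicate block.

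Summed levels of some marker lists did not overlap between the groups, and single genes carried much of these sums. Over all tested rows, 0.818% were called higher and 0.488% lower, or 3.31% and 2.55% with the block, and 9.93% had an unadjusted p below 0.05. The marker lists were chosen with earlier results of these data known, so nothing is read from their counts. The summed level of 12 neuron markers was 14512 to 17794 on the control arrays and 23747 to 28421 on the IsO arrays (linear normalised intensity). TUBB3, a tubulin gene, made up 68.1% to 92.3% of it and was not called (0.51 ± 0.20, SE, adjusted p = 0.464). Without TUBB3 the ranges were 1366 to 2511 and 3585 to 9066. Of the 9 neuron markers tested, 1 was called higher, NEFM, with 2.67 ± 0.44 (adjusted p = 0.0498, 0.00315 to 0.373 over the alternatives). With the block 4 were called higher, NEFM, NEFL, GAP43 and SNAP25. SYT1, a synaptotagmin of synaptic vesicles, was above background on 1 array of each group, and its level differed by -0.08.

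The summed level of 10 progenitor markers was 110457 to 134056 on the control and 70513 to 91262 on the IsO arrays. Of 9 tested, 1 was called lower, SOX2, which differed by -1.43 ± 0.22 (SE, adjusted p = 0.0385, 0.0228 to 0.241 over the alternatives). With the block 4 were called lower, SOX2, PAX6, NES and HES5. SOX3, whose IsO arrays all lay below its control arrays, differed by -0.71 ± 0.29, and FABP7 by -0.43 ± 0.37 (adjusted p = 0.475 and 0.882). VIM, MSI1 and LIN28B were not lower in IsO-like cells. VIM, the gene of the filament protein vimentin, had every IsO array above every control array, with 0.54 ± 0.16 (adjusted p = 0.265), and MSI1 and LIN28B differed by 0.15 ± 0.27 and 0.07 ± 0.70 (adjusted p = 0.973 and 0.995). SOX1 exceeded background on a single array, of the IsO group.

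For 10 neural crest markers the ranges of the summed level were 1569 to 3480 and 3525 to 11505, of which SOX10 made up 17.8% to 57.5%. Of 8 tested, 2 were called higher. TWIST1 differed by 1.97 ± 0.31 (SE, adjusted p = 0.0449, 0.0185 to 0.241 over the alternatives). PAX3 was at least 2.38-fold higher in IsO-like cells under the main background correction (adjusted p = 0.0181, 0.00748 to 0.149). Its difference was 1.72 there, against 0.84 without background correction and 0.068 with a background from all rows. The bound was not computed for those 2 settings, so 2.38-fold holds for the main setting only. The PAX3 row combined several probes, while the lowest detected level came from 1-probe rows. PAX3 and PAX7 were above background on the IsO arrays alone and so entered the fit through the group where they were high. With the block 5 were called higher, TWIST1, PAX3, SOX10, TFAP2A and SNAI2. PAX7 and ETS1 were not called with or without it, and differed by 0.42 ± 0.23 and 0.37 ± 0.33 (adjusted p = 0.717 and 0.890). NGFR was not called either and differed in the other direction, by -0.49 ± 0.29 (adjusted p = 0.743).

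Of 12 markers of gut endocrine cells and endoderm, SOX17, GATA4, GATA6, CDH17, FEV and VIL1 were not above background on any array, and the summed level was 1711 to 2671 on the control and 1541 to 3103 on the IsO arrays. Among the 4 of them that were tested, INSM1, also a gene of newborn neurons, was called higher, with 1.76 ± 0.24 (SE, adjusted p = 0.0281, 0.0104 to 0.203 over the alternatives). FOXA1 was above background on all 6 arrays and AFP on 2 control arrays and 1 IsO array. They differed by 0.32 ± 0.84 and 0.18 ± 0.37 (adjusted p = 0.981 and 0.977). FOXA2 and NKX2-2 were not tested, and each was above background on 2 IsO arrays and no control array. None of 5 tested pluripotency markers passed, with or without the block, and none had an unadjusted p below 0.05. Their summed level over 8 genes was 33722 to 38283 and 35678 to 39344, of which LIN28A, listed as LIN28, made up 90.8% to 93.4%, and NANOG was at background on all arrays. None of 5 tested mesenchyme markers passed, 3 had an unadjusted p below 0.05, and with the block COL3A1, a collagen gene, was called higher (1.55 ± 0.34, adjusted p = 0.117, 0.0351 with the block). The summed level of 10 mesenchyme markers was 10419 to 16523 and 10770 to 11063, and members differed in opposite directions within it. ACTA2, a smooth muscle actin gene, made up 61.4% to 90.4% of it and differed by -0.64 ± 0.25, while COL1A1 and COL1A2 differed by 0.84 ± 0.29 and 1.24 ± 0.55. Without ACTA2 the ranges were 1255 to 1759 and 2098 to 4247.

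The calls of NEFM, SOX2, TWIST1, PAX3 and INSM1 were lost without control array 2, without control array 3 and with the background from all rows. Without IsO array 2 or 3 those of NEFM, SOX2, TWIST1 and INSM1 were lost, without IsO array 1 those of NEFM, SOX2 and TWIST1, and without control array 1 those of SOX2 and INSM1. The call of NEFM was also lost without background correction, in the authors' processed values and with median scaling, and that of TWIST1 with median scaling. For NEFM, SOX2 and TWIST1 the settings named here are not all those under which the call was lost. Of 16 alternatives, NEFM was called under 6, SOX2 and TWIST1 under 8 each and INSM1 under 10, and PAX3 under 9 of 12. Each of the 5 kept its direction under every alternative that could be run. In IsO-like cells WNT1, a signal of the isthmic organizer, was higher by 3.65 ± 0.30 (SE, adjusted p = 0.00365, 0.0515 without IsO array 2). The part of these markers in the differences of CCK, CCKBR and SST was not tested.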

How the data were processed

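RNA of 6 samples was measured on Illumina bead arrays, with GenomeStudio 2011.1 listed among the tools in the submitters' processing notes. Per the file headers and values, the authors deposited linear intensities by gene name, without background subtraction. Per the file headers, each has a deposited detection p-value, which sets it against negative controls. In 27322 rows these p-values were multiples of 1 in 770 (within 0.002 of a whole number), so these rows were taken to hold 1 probe, and the other 7370 to combine several. A bright row with p-values of 0 on all arrays meets this rule whatever its number of probes. All members but NTS and TAC1 were taken to hold 1 probe. For CCKBR, at 0 on all 6 arrays, the rule cannot tell. The authors' processed table, with log2 intensities for 34685 rows, was equal within 0.00754 to log2 intensities that were quantile-normalised with no correction of the background, and it served as an alternative. The genome build is not given in the sources used here.

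Background was corrected by normexp (limma 3.58.1, R 4.3.3), with the background mean (122 to 132) and SD (22.3 to 27.8) inferred from 1-probe rows, an offset of 16, quantile normalisation and log2. Rows detected (p below 0.05) on 3 arrays or more were fitted with lmFit and eBayes, 2-sided, with Benjamini-Hochberg adjustment over all 14548. From 13999 to 15232 rows were detected per array, and precision is limited by the number of arrays. A row of several probes also counted as above background at or over the lowest signal among detected 1-probe rows. The fit was tested on simulated data.

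Deviations of same-numbered arrays from their group means correlated at 0.87, 0.40 and 0.66, so the numbers were taken to pair the arrays, as a hint from the data and not from the labels. Number 1 alone stood apart: control array 2 correlated at 0.70 with IsO array 3, and control array 3 at 0.49 with IsO array 2. The pairing of numbers 2 and 3 is therefore not settled, and every value with the block rests on it. Members and lists were chosen with earlier results of these data known. Of 241 listed genes, 239 had a row, 6 under an older symbol. Genes were named by a rule: from each list the called genes whose groups did not overlap, up to 6 per direction (2 for markers), the 3 nearest profiles of CCK, CCKBR, SST and TAC1, and genes behind a count of 5 or fewer. For 1 gene that the rule names, the result is not reported here. Other listed genes named, such as SSTR2, TPST1 and GNAQ, were chosen after their values were seen. Promoters are RefSeq's, on GRCh38.p14, and 6 of the 9 members had one.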

Additional observations from a re-analysis of the deposited data

How the results depend on the processing

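Of the members' differences under the 16 alternatives, 132 moved by less than the spread between replicates and 12 by more, and none of the 9 members changed sign under any of them. The settings that changed only the block or the row filter left these differences as they were by construction, and count among the 132. CCK differed by -0.85 without background correction, -0.0725 with the background from all rows, -1.22 with an offset of 50 and -0.85 in the authors' processed values, SST by 1.92, 0.47, 2.43 and 1.92, and GAL by -0.0222 with the background from all rows. Leaving out each array gave -1.90 to -1.64 for CCK, -4.48 to -3.63 for CCKBR, 2.37 to 3.30 for SST, -0.94 to -0.35 for GAL and 0.03 to 0.39 for TAC1.

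The count of all called rows, 190, was 852 with the replicate block, 101 with the background from all rows and 30 to 113 with an array left out, where fewer arrays entered. The split into higher and lower was 119 and 71, against 11 and 20 without IsO array 2 and 17 and 24 without IsO array 3. With the block, 4 other precursors, 4 processing genes, 4 dense-core granule genes, 1 gene of peptide breakdown and 2 of Gq signalling were called. Without the block these counts were 0, except for 2 dense-core granule genes. The latter count was 0 with the background from all rows, 1 with median scaling, 1 with no filter, and 0 to 1 with an array left out. Median scaling called 1 other precursor, PROK2, and no filter called 1 receptor, GALR2. The arrays numbered 2 and 3 alone, chosen after seeing the data, called 2 other precursors (PROK2 higher, NPPB lower), 2 processing genes (QPCTL higher, CTSL lower), 2 dense-core granule genes (RAB3C and VGF, higher), 1 gene of peptide breakdown (PRCP, higher) and 2 of Gq signalling (RGS16 higher, ITPR3 lower). Where no reason is named, the cause was not tested.

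Signal over background limits CCK, GAL, TAC1, NPY, PENK, CCKAR and NTS, whose signals lay near the lowest detected, so that a low level could not be told from none. SST was detected but also lay near that limit on control arrays 2 and 3, at intensities of 172 and 182. The lowest detected 1-probe rows of these arrays had 165 and 160. The size of the SST difference is limited by this as well. Disagreement between probes of TAC1 and NTS was not analysed here.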

Other observations

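Some rows of several probes were above background but were not tested, since their detection p-values are on another scale. TAC3, the precursor of neurokinin B, had a level of 7.03 ± 0.45 in control and 6.99 ± 0.62 in IsO-like cells (SD, n = 3 each), above background on all 6 arrays. QPCT, a glutaminyl cyclase of secretory granules, had 7.27 ± 1.39 and 5.74 ± 0.18 and was above background on 2 arrays of each group. SYT7, a synaptotagmin, had 7.45 ± 0.16 and 7.81 ± 0.26. EDN1, the precursor of endothelin 1, held 1 probe and had 6.54 ± 0.72 and 5.32 ± 0.18. It was above background on 2 control arrays and no IsO array, so its control mean includes an array at background. These 4 genes were chosen after their values were seen.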
